A study of Mus musculus with 12 samples.

Results

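The genotype dependence of the c-kit difference was examined in 6 mouse leukaemias induced by the fusion oncogene MLL-AF9. For each leukaemia and gene, the log2 value of the c-kit-negative cells was subtracted from that of the c-kit-positive cells, and the 3 differences of the leukaemias carrying the Dnmt3b label were compared with the 3 of the leukaemias labelled wild type (WT). All 12 arrays of the series entered, 3 for each combination of genotype and fraction, and 19152 of 22180 named genes passed a filter on dim signal and were tested. The main programme of the c-kit hierarchy ran the same way in both genotypes: granule protease, histone and cell cycle genes were higher in c-kit-positive cells, and Fn1 (fibronectin), the metalloproteinase genes Mmp8 and Mmp9, S100a6 and monocyte genes such as Csf1r were higher in c-kit-negative cells. No gene passed the test for a different size of this step between genotypes.

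The WT group comprised the leukaemias numbered 73, 75 and 79, and the other group those numbered 81, 83 and 85. Both groups carry MLL-AF9, so the oncogene is common to all 12 arrays. The second group is described in its labels both as a Dnmt3b knock-in and as overexpressing Dnmt3b, a de novo DNA methyltransferase. The labels used here name neither the promoter that drives Dnmt3b nor the mouse behind each number, so the p-values measure the spread between these numbered leukaemias. They give bone marrow in the titles and spleen as the source, which leaves the tissue unsettled. The cells were sorted on c-kit, and total RNA was hybridised to Affymetrix arrays, whose values are log2 signals after RMA (robust multi-array average). A c-kit difference of 1 therefore means a 2-fold higher signal in the c-kit-positive cells.

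c-Kit is the receptor for stem cell factor and marks immature myeloid cells. In MLL-AF9 leukaemia the c-kit-positive fraction is known to be rich in cells that can pass on the disease, and c-kit-negative cells carry more features of mature granulocytes and monocytes. Neutrophil development passes from primary granule proteins such as myeloperoxidase to secondary granule proteins such as cathelicidin, and then to receptors of mature cells such as Cxcr2. In bulk RNA, fewer cells of a kind and less RNA per cell cannot be told apart.

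The sort marker itself separated the fractions in every leukaemia. The Kit level was 8.01, 8.13 and 8.34 in the c-kit-positive cells of WT and 8.15, 7.88 and 7.98 in those of the Dnmt3b-labelled leukaemias (here and below in the order 73, 75, 79 and 81, 83, 85). It was 6.69, 6.72 and 6.57 in the c-kit-negative cells of the WT leukaemias and 6.47, 6.87 and 6.75 in those of the Dnmt3b-labelled leukaemias. The Kit differences were 1.32, 1.41 and 1.77 in WT and 1.68, 1.01 and 1.23 in the Dnmt3b-labelled leukaemias, so the groups overlapped. Their means differed by -0.19 (SE 0.19, limma adjusted p = 0.947, exact two-sided permutation p = 0.4, where 3 against 3 allows no p below 0.1), with a 95% interval from -0.60 to 0.22.

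The Dnmt3b signal did not separate the genotypes. In c-kit-positive cells it was 6.66, 6.41 and 6.33 in WT and 6.49, 6.38 and 6.33 in the Dnmt3b-labelled leukaemias. In c-kit-negative cells it was 6.25, 6.38 and 6.10 in WT and 6.16, 6.33 and 6.64 in the others. The groups overlapped in both fractions, so the second group is called the Dnmt3b-labelled leukaemias throughout. Whether the probe set reads an introduced Dnmt3b transcript is not given in the sources used here. The c-kit difference of Dnmt3b was 0.41, 0.03 and 0.23 in WT and 0.33, 0.04 and -0.31 in the Dnmt3b-labelled leukaemias, a contrast of -0.21 (SE 0.18, limma adjusted p = 0.930, exact permutation p = 0.5).

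Array medians lay between 5.557 and 5.712 and correlations between arrays between 0.8882 and 0.9836. The arrays of a leukaemia deviated from their group means together (correlation 0.279 to 0.601), which the within-leukaemia difference removes. Leukaemia 79 (WT) and leukaemia 81 (Dnmt3b-labelled) stood apart: their c-kit differences correlated at 0.339 across genes, the lowest of the 15 pairs, against up to 0.655 between 73 and 75.  The deposited values do not show how many spots support a value, and the number of leukaemias limits the precision: the median 95% interval of the genotype contrast reached 0.324 to each side.

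Over both genotypes, 3758 genes had a c-kit difference at a limma adjusted p under 0.05. Of these, 2492 (13% of the genes tested) were higher in c-kit-positive cells and 1266 (6.61%) were lower. Taken alone, the WT leukaemias gave 2109 such genes (11%) and the Dnmt3b-labelled leukaemias 1666 (8.70%). These counts depended on single leukaemias: genes lower over both genotypes numbered 734 without 75, 802 without 83 and 806 without 73. The WT count of higher genes fell from 1525 to 306 without 75, 426 without 73 and 802 without 79, and that of the Dnmt3b-labelled from 1139 to 504 without 83 and 564 without 85. A gene was called in both genotypes in the same direction in 1036 cases and in opposite directions in 2, together 49.2% of the WT calls and 62.3% of the calls in the Dnmt3b-labelled leukaemias. Across the 19152 genes, which are not independent replicates, the mean differences of the 2 genotypes correlated at 0.753 (Pearson), and across the 3758 called genes at 0.886. The called genes were chosen by the mean of both genotypes, which by itself raises the second value, so it does not measure agreement. The size of the step was close on average. Genes higher in c-kit-positive cells had a median difference of 0.40 in WT and 0.36 in the Dnmt3b-labelled leukaemias, and 45.1% of them had the larger step in the latter. Genes lower in c-kit-positive cells had medians of -0.35 and -0.34, and 52.3% had the larger step in the Dnmt3b-labelled leukaemias.

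**Figure D1:**
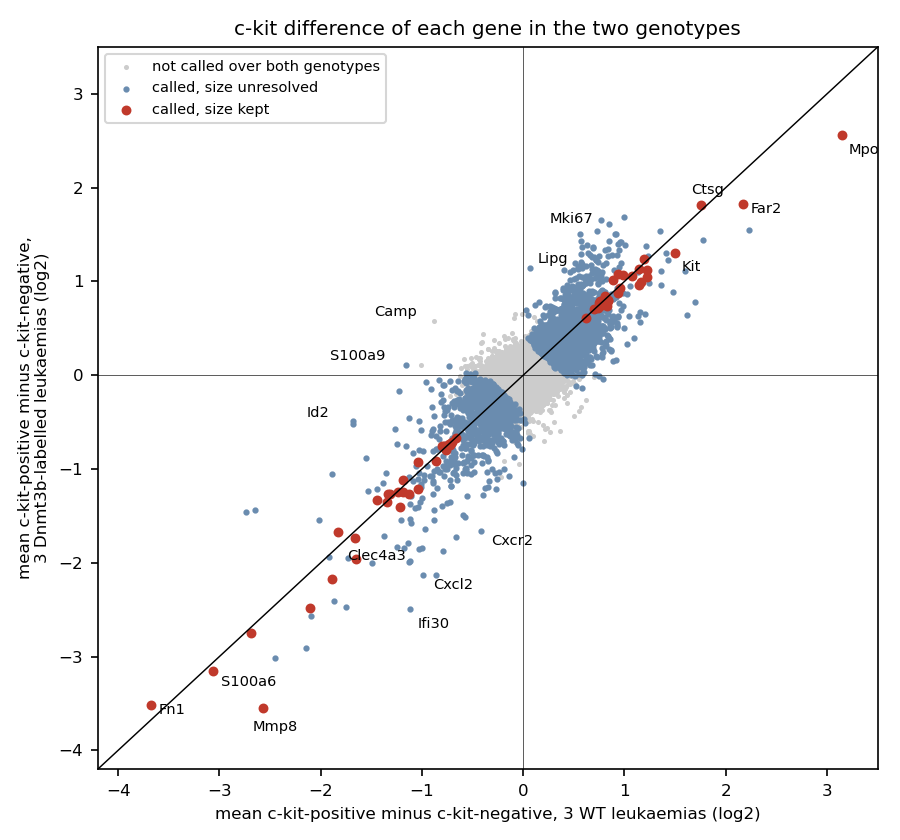
Mean c-kit-positive minus c-kit-negative log2 difference of each of 19152 genes in the 3 WT leukaemias (x axis) and the 3 Dnmt3b-labelled leukaemias (y axis), with the line of equal size. Blue points are the 3699 genes called over both genotypes whose size is unresolved and red points the 59 whose size was kept. The correlation was 0.753 over all genes and 0.886 over the called genes. The latter were chosen by the mean of both genotypes, which by itself raises it. Cxcr2, Id2 and Camp lie off the line.

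The overall amplitude varied more between leukaemias than between genotypes. It was measured as the slope of a leukaemia's differences on the mean of the other 5, over the genes called in those 5. Among WT the slope was 0.982 in leukaemia 73, 0.9497 in 75 and 0.671 in 79. Among the Dnmt3b-labelled it was 0.795 in 81, 0.987 in 83 and 0.967 in 85. The group means were 0.868 ± 0.171 (SD, n = 3) and 0.916 ± 0.105 (SD, n = 3), and the groups overlapped. Leukaemia 79 was low on both sides of the hierarchy, and 81 only on genes higher in c-kit-positive cells. On genes higher in c-kit-negative cells the slope was 0.566 in 79 and 0.984 in 81, whereas on genes higher in c-kit-positive cells it was 0.755 in 79 and 0.672 in 81.

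The size of the step could be called kept for 59 genes, 30 higher and 29 lower in c-kit-positive cells, which is 1.57% of the hierarchy genes. Kept means that the whole 95% interval of the genotype contrast, not adjusted for the number of genes, lay within a margin of 50% of the gene's mean c-kit difference. The other 3699 hierarchy genes were unresolved, and only steps that are large against the interval can meet this rule, so it favours large steps. The class held 27 genes without 73, 34 without 75, 33 without 83 and 31 without 85.

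Among the kept genes higher in c-kit-positive cells were Mpo, encoding myeloperoxidase, Ctsg, encoding the granule protease cathepsin G, Far2, a fatty acyl-CoA reductase, Kit, Arsb, encoding arylsulfatase B, and Etfb, a subunit of the electron transfer flavoprotein. The Mpo difference was 3.84, 3.32 and 2.29 in WT and 2.47, 2.59 and 2.63 in the Dnmt3b-labelled leukaemias. This corresponds to 8.87-fold and 5.90-fold higher signal, and the contrast was -0.59 (95% interval -1.24 to 0.06). The Ctsg difference was 2.10, 1.31 and 1.86 against 1.03, 2.34 and 2.07, with a contrast of 0.06 (interval -0.60 to 0.71). The groups overlapped for both genes. The Far2 difference was 2.34, 2.21 and 1.96 in WT and 2.599, 1.80 and 1.08 in the others. Further kept genes of this side were Mcm2, a subunit of the replicative helicase (mean difference 0.78), Cd81, a tetraspanin (0.94), and Dtymk, the thymidylate kinase (0.78), named here after their values were seen.

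The kept genes higher in c-kit-negative cells included Fn1, encoding fibronectin, S100a6, a calcium-binding protein, the metalloproteinases Mmp8 and Mmp9, the inhibitory receptor Lilrb4a, and Tgfbi, a matrix protein. The Fn1 difference was -4.22, -3.92 and -2.88 in WT and -3.11, -4.28 and -3.15 in the Dnmt3b-labelled leukaemias. Fn1 was therefore 12.8-fold and 11.4-fold lower in c-kit-positive cells, the largest step of all the genes named here. The S100a6 difference was -3.11, -3.29 and -2.78 against -3.67, -2.57 and -3.21 (contrast -0.09, interval -0.62 to 0.44). For Mmp9 it was -2.40, -2.12 and -3.55 against -3.36, -2.12 and -2.78. Mmp8 met the margin although its groups did not overlap: -2.74, -2.004 and -2.96 in WT against -3.21, -3.95 and -3.48, a contrast of -0.97 (SE 0.25, limma adjusted p = 0.699). The same held for Lilrb4a, with -1.86, -2.14 and -2.31 against -2.67, -2.31 and -2.45 (interval -0.72 to -0.03).

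Several of the largest steps were unresolved and varied among the leukaemias. Pld4, a lysosomal exonuclease, was -3.07, -3.12 and -0.25 in WT and -3.53, -2.89 and -2.30 in the Dnmt3b-labelled leukaemias. Wfdc17, a small secreted inhibitor, was -3.09, -2.81 and -0.39 against -2.61, -2.98 and -2.12. In both genes leukaemia 79 lacked most of the step that the other 5 leukaemias showed. Il13ra1, a receptor chain for interleukin-13, and Clec4e, a receptor for microbial glycolipids, had the same shape, with -0.76 and -0.02 in leukaemia 79 against -2.69 to -2.04 and -2.52 to -1.50 in the others. Retnlg, a resistin-like protein of neutrophils, varied within both genotypes, from -3.11 to -1.40 in WT and from -3.77 to -1.70 in the Dnmt3b-labelled leukaemias.

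The test of the genotype contrast called 0 of 19152 genes (0%) by limma at an adjusted p under 0.05, and the lowest adjusted p was 0.157. At an unadjusted p under 0.05, 546 genes (2.85%) had a higher c-kit difference in the Dnmt3b-labelled leukaemias and 556 (2.90%) a lower one. The 3 differences of each genotype did not overlap for 1101 genes higher (5.75%) and 1017 genes lower (5.31%). The median contrast over all genes was 0.00 (0.00328 before rounding). Among the hierarchy genes, 256 with groups that did not overlap had the larger step in the Dnmt3b-labelled leukaemias and 318 the smaller step. The genes named next had the smallest p among those with a contrast of at least 1 and no overlap, immunoglobulin segments left out. None of them passed the adjusted threshold, and their values are given as measured. For Cxcr2, Clec4a3, Lipg and Camp a limma adjusted p without 1 leukaemia is also given. It is the only leave-out in which that gene passed. The leukaemia left out was each time the one nearest the other genotype, so its removal widened the contrast. These p-values are therefore not read as calls.

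Cxcr2, the receptor that draws neutrophils towards CXC chemokines, had the smallest p. Its c-kit difference was -0.33, -0.17 and -0.75 in WT and -1.52, -1.75 and -1.72 in the Dnmt3b-labelled leukaemias, a 1.33-fold against a 3.17-fold step. The contrast was -1.24 (SE 0.16, 95% interval -1.60 to -0.89, limma adjusted p = 0.157), and without leukaemia 79 it was -1.41 with an adjusted p of 0.0391. The levels placed this in the c-kit-negative cells: these lay at 6.90, 6.96 and 7.03 in WT and at 8.54, 8.23 and 8.06 in the Dnmt3b-labelled leukaemias. The c-kit-positive cells overlapped, at 6.57, 6.79 and 6.28 against 7.01, 6.48 and 6.35.

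Clec4a3, a C-type lectin receptor of myeloid cells, had the same shape. Its difference was -0.82, -0.85 and -0.70 in WT and -2.04, -2.12 and -1.46 in the Dnmt3b-labelled leukaemias (contrast -1.08, SE 0.18, limma adjusted p = 0.230). The c-kit-negative level was 5.84, 5.84 and 5.76 against 7.12, 6.997 and 6.54, and the c-kit-positive level stayed between 4.88 and 5.09 in all 6. Without leukaemia 85 the Clec4a3 contrast was -1.29 with an adjusted p of 0.0296.

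Cxcl2, a chemokine that binds Cxcr2, and Ifi30, a thiol reductase of the lysosome, also had the larger step in the Dnmt3b-labelled leukaemias. The Cxcl2 difference was -1.21, -0.995 and -0.77 in WT and -1.76, -2.48 and -2.15 in the others (contrast -1.14, SE 0.19, limma adjusted p = 0.230). Its level varied widely within each group: in c-kit-negative cells it reached 11.12 in leukaemia 83 and lay between 8.24 and 9.18 in the other 5. The Ifi30 difference was -1.82, -1.24 and -0.30 against -3.36, -2.31 and -1.82, so the highest Dnmt3b-labelled value met the lowest of WT without crossing it (contrast -1.38, SE 0.39, limma adjusted p = 0.728).

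In the other direction stood Id2, an inhibitor of DNA binding by helix-loop-helix factors. Its step was -1.58, -1.94 and -1.54 in WT and -0.07, -0.53 and -0.87 in the Dnmt3b-labelled leukaemias, 3.21-fold against 1.41-fold. The contrast was 1.19 (SE 0.20, interval 0.76 to 1.63, limma adjusted p = 0.230). Here the c-kit-positive cells separated: Id2 lay at 7.87, 7.36 and 6.97 in WT and at 8.54, 8.51 and 8.68 in the Dnmt3b-labelled leukaemias, whereas the c-kit-negative cells overlapped.

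Lipg, encoding endothelial lipase, had almost no step in WT, with 0.19, 0.07 and -0.07, and a step of 1.52, 1.36 and 0.56 in the Dnmt3b-labelled leukaemias (contrast 1.08, SE 0.22, limma adjusted p = 0.444). Its level in c-kit-positive cells was 5.16, 5.22 and 4.74 against 6.75, 7.07 and 6.21, and in c-kit-negative cells 4.97, 5.15 and 4.81 against 5.23, 5.71 and 5.65. Both fractions were thus higher in the Dnmt3b-labelled leukaemias, with the wider gap in c-kit-positive cells. Without leukaemia 85 the contrast was 1.37 with an adjusted p of 0.0296.

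The remaining 4 genes of this direction are neutrophil granule or cytosol proteins. Camp, the antimicrobial cathelicidin, differed by 0.24, -1.22 and -1.65 in WT and by 0.48, 0.69 and 0.57 in the Dnmt3b-labelled leukaemias (contrast 1.46, SE 0.36, limma adjusted p = 0.692). Leukaemia 73 lay close to the Dnmt3b-labelled values. Without this WT leukaemia, the nearest to the other group, the contrast was 2.01 with a limma adjusted p of 0.00573. S100a8 and S100a9 encode the subunits of calprotectin. The S100a8 difference was -0.47, -1.07 and -2.15 against -0.11, -0.16 and -0.24, and the S100a9 difference was -0.32, -1.19 and -1.96 against 0.35, 0.07 and -0.10. The S100a8 level in c-kit-positive cells was 11.08, 9.93 and 9.50 in WT and 11.88, 11.96 and 12.07 in the Dnmt3b-labelled leukaemias. In c-kit-negative cells it was 11.55, 11 and 11.65 against 11.99, 12.13 and 12.31, so the groups did not overlap in either fraction and lay farther apart in c-kit-positive cells. Stfa2, a stefin that inhibits cathepsins, differed by -2.36, -2.02 and -3.58 against -1.94, -1.07 and -1.29; the stefin genes are near-identical copies, so its probe set may also read its neighbours.

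**Figure D2:**
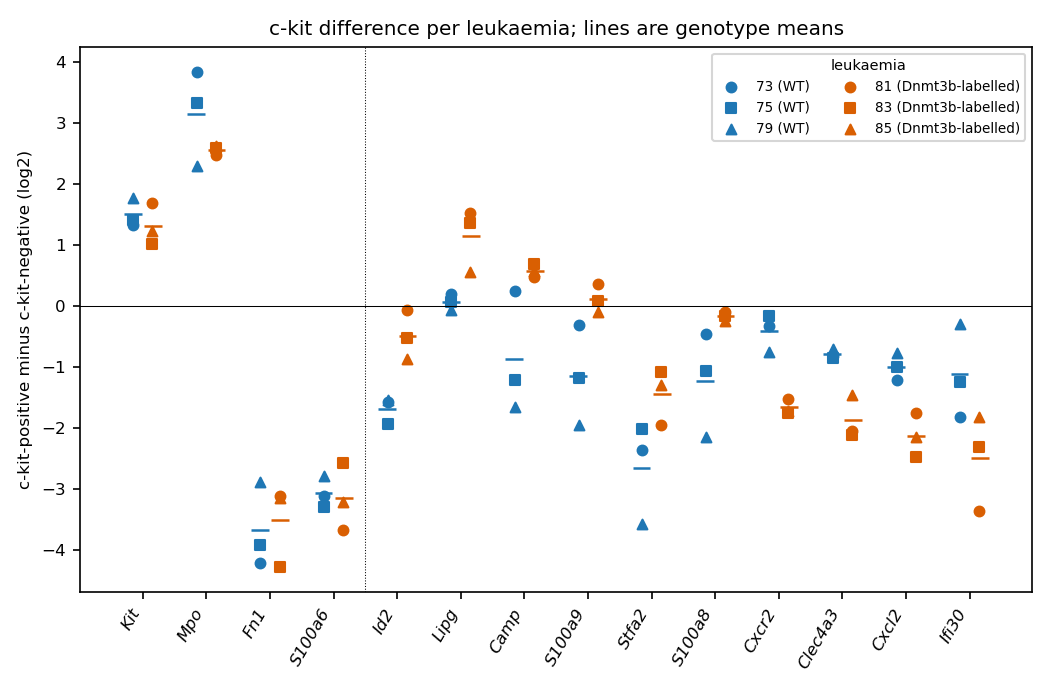
c-kit-positive minus c-kit-negative log2 difference in each of the 6 leukaemias (symbols) with the mean of each genotype (lines) for Kit, Mpo, Fn1 and S100a6, whose size was kept, and for the 10 genes with the smallest p of the genotype contrast at a size of at least 1. The groups overlap for the 4 genes on the left and do not overlap for the 10 on the right, which were chosen for that.

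**Figure D3:**
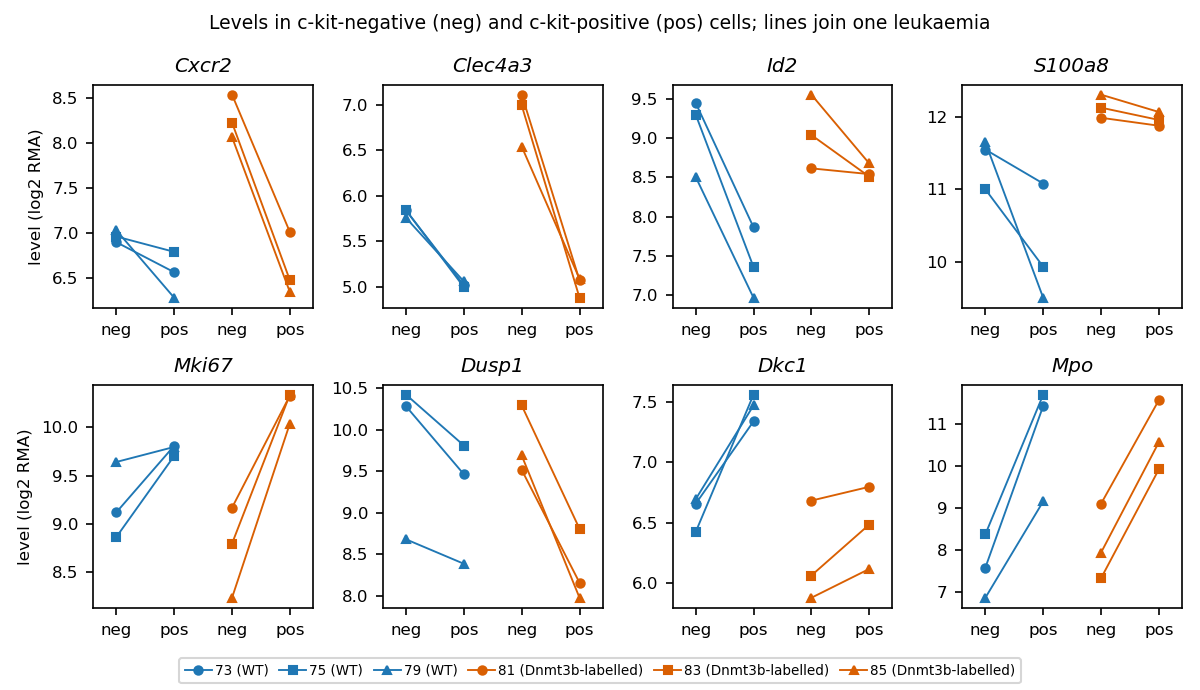
Log2 RMA level of 8 genes in c-kit-negative (neg) and c-kit-positive (pos) cells, with lines joining the fractions of a leukaemia. For Cxcr2 and Clec4a3 the genotypes separate in c-kit-negative cells (Cxcr2: 6.90 to 7.03 against 8.06 to 8.54), for Id2 in c-kit-positive cells (6.97 to 7.87 against 8.51 to 8.68) and for S100a8 in both fractions.

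The gene families were described with 41 lists, of which 979 genes were tested. No p-value is given for a list: each is set against the same count over all genes, of which 2.85% were higher and 2.90% lower at an unadjusted p under 0.05. The list medians per leukaemia did not overlap between genotypes in several lists, so such a separation is not particular to 1 list. The Dnmt3b-labelled medians were higher in the mitosis, germline, megakaryocyte and stromal lists. They were lower in the MYC, monocyte, glutathione, glycolysis, Ifitm and Schlafen, and T and NK cell lists.

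Mitosis genes had the widest shift of any list. They encode the kinases, kinesins, kinetochore proteins and cohesin or condensin partners that divide the chromosomes. Of 63 tested, 61 were higher in c-kit-positive cells over both genotypes and none lower. The list's median c-kit difference was 0.65, 0.72 and 0.33 in WT and 0.83, 1.06 and 1.12 in the Dnmt3b-labelled leukaemias, so every Dnmt3b-labelled leukaemia lay above every WT leukaemia. The contrast was above 0 for 60 of 63 genes, with a median of 0.44, against 0.00 over all genes. At an unadjusted p under 0.05, 39 were higher in the Dnmt3b-labelled leukaemias and none lower. None passed the adjusted threshold. These genes move together within a leukaemia, so their number does not add replicates.

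The promoters of mitosis genes are known for CCAAT boxes, bound by the factor NF-Y, and for cell cycle homology regions such as TTTGAA, through which transcription peaks in late cell cycle. The sequences before the start sites of the 3 members with the smallest p and a single listed start are shown for this reason, 250 bases each, 5′ to 3′ on the gene's strand, from RefSeq on GRCm38.p6, with CCAAT and TTTGAA (or their reverse complements ATTGG and TTCAAA) in capitals.
Kif4 (chrX:100625815-100626064, + strand): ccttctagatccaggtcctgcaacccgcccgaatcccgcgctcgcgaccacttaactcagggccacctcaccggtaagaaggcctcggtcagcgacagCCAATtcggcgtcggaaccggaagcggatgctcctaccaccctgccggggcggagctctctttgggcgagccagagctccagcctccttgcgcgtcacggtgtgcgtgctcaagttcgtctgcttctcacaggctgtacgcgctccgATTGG
Mki67 (chr7:135716380-135716629, - strand): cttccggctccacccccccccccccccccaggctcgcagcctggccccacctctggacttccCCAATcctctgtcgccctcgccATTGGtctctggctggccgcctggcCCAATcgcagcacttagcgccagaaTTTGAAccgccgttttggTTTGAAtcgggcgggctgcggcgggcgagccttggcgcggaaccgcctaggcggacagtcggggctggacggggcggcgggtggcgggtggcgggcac
Cenpf (chr1:189688087-189688336, - strand): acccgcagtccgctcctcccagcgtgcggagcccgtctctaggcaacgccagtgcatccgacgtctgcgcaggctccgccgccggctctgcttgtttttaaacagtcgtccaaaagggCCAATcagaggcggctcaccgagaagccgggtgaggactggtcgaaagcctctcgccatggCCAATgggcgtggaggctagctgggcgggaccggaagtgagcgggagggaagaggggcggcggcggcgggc
Kif4 and Cenpf each held 2 CCAAT matches and no TTTGAA, and Mki67 held 3 CCAAT and 2 TTTGAA matches. Among the 59 listed windows of 53 matched mitosis genes, 71.2% held CCAAT on either strand, 40.7% held TTTGAA and 33.9% held both. Of all 32851 windows 33.8% held CCAAT, 5252 windows held TTTGAA and 5.5% held both. Over the 18312 windows of the genes tested the shares were 34.3%, 12.9% and 4.6%. Replication-dependent histone genes, described below, were as rich: of 15 windows 80% held CCAAT, 33.3% TTTGAA and 33.3% both. MHC class I genes held CCAAT in 76.9% of 13 windows, but TTTGAA in 7.7%. These motifs were thus not particular to the mitosis list, and their part in its shift was not tested. A match is a description of the letters and not a measured binding site.

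Kif4, a chromosome-arm kinesin, had a c-kit difference of 0.34, 0.63 and 0.42 in WT and 1.13, 1.08 and 1.08 in the Dnmt3b-labelled leukaemias (contrast 0.63, SE 0.13, limma adjusted p = 0.444). Mki67, the proliferation antigen Ki-67, differed by 0.69, 0.84 and 0.16 against 1.16, 1.55 and 1.81 (contrast 0.94, SE 0.20, adjusted p = 0.479). Ect2, the exchange factor that starts cytokinesis, differed by 0.77, 1.16 and 0.62 against 1.40, 1.80 and 1.63 (contrast 0.76). In these 3 genes the groups did not overlap. The Mki67 level separated in c-kit-positive cells and overlapped in c-kit-negative cells: in the former it lay at 9.81, 9.71 and 9.80 in WT and 10.33, 10.34 and 10.04 in the Dnmt3b-labelled leukaemias, and in the latter at 9.12, 8.86 and 9.64 against 9.17, 8.80 and 8.23. The mean level of the whole mitosis list did not share this shape and overlapped in both fractions. It was 7.47 to 7.60 in WT against 7.56 to 7.755 in c-kit-positive cells. In c-kit-negative cells it was 6.76 to 7.27 against 6.46 to 6.96.

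The larger members Cdk1, the mitotic kinase, and Top2a, a DNA topoisomerase, overlapped between genotypes. Cdk1 differed by 0.93, 1.51 and 0.55 in WT and by 1.07, 1.89 and 2.09 in the Dnmt3b-labelled leukaemias. For Top2a the values were 0.85, 1.32 and 0.14 against 1.24, 1.73 and 2.003. Only Pttg1, encoding securin (-0.23), Mybl2, a transcription factor of the cell cycle (-0.10), and Cdca5, encoding sororin (-0.01), had a contrast below 0, and Aurka, a spindle pole kinase, lay near it (0.03). Leukaemia 79 had the smallest mitotic step of all 6, and without it the median contrast was 0.35 and 23 of 63 genes were higher at an unadjusted p under 0.05, against 2.42% of all genes in that fit. Leaving out 83 gave 26 genes, 85 gave 29, 73 gave 33, 75 gave 43 and 81 gave 45, against 2.54% to 3.20% of all genes in these fits.

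Genes of the phases before mitosis had smaller contrasts; the difference between the lists was not tested. The 51 S phase and DNA replication genes had list medians of 0.48, 0.59 and 0.34 in WT and 0.48, 0.56 and 0.63 in the Dnmt3b-labelled leukaemias. The median contrast was 0.11, and 0.04 without 85 and 0.07 without 79. At an unadjusted p under 0.05, 4 were higher and none lower. Of these 4, Asf1b, a histone chaperone, differed by 0.82, 0.83 and 0.42 against 0.98, 1.62 and 1.49. E2f2, a transcription factor of G1 and S phase, was lower in c-kit-positive WT cells (-0.42, -0.47 and -0.81) and near 0 in the Dnmt3b-labelled leukaemias (0.06, -0.08 and 0.10). Tk1 (thymidine kinase) and Rrm1 (a subunit of ribonucleotide reductase) overlapped, with contrasts of 0.00 (0.00375) and 0.35. The promoters of the S phase list held CCAAT in 59.6% and TTTGAA in 15.4% of 52 windows.

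The 17 replication-dependent histone genes tested had a median contrast of 0.08, with 3 higher and 1 lower at an unadjusted p under 0.05. The median ranged from 0.00387 without 83 to 0.17 without 75 and was 0.39 under the stricter filter on dim genes. The count of higher genes was 0 without 79 or 85 and 6 without 81 (2.77% of all genes higher in that fit), so no size is read from this list. H4c17, a histone H4 gene, differed by 1.89, 1.68 and 0.66 in WT and 1.30, 1.12 and 1.48 in the Dnmt3b-labelled leukaemias. H2ac10, a histone H2A gene, differed by 0.64, 1.06 and 0.37 against 0.98, 1.27 and 1.83. These genes are near-identical, so single members are uncertain. Among cell cycle regulators, Cdk6, a kinase of early G1 and an MLL-AF9 target, differed by 0.49, 0.31 and 0.41 against 0.54, 0.77 and 0.84 (contrast 0.31, limma adjusted p = 0.848). Rb1, the retinoblastoma protein, was opposite in sign, with -0.42, -0.56 and -0.07 against 0.38, 0.09 and 0.35 (contrast 0.62, adjusted p = 0.700), but the other probe set of Rb1 gave a contrast of 0.11.

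**Figure D4:**
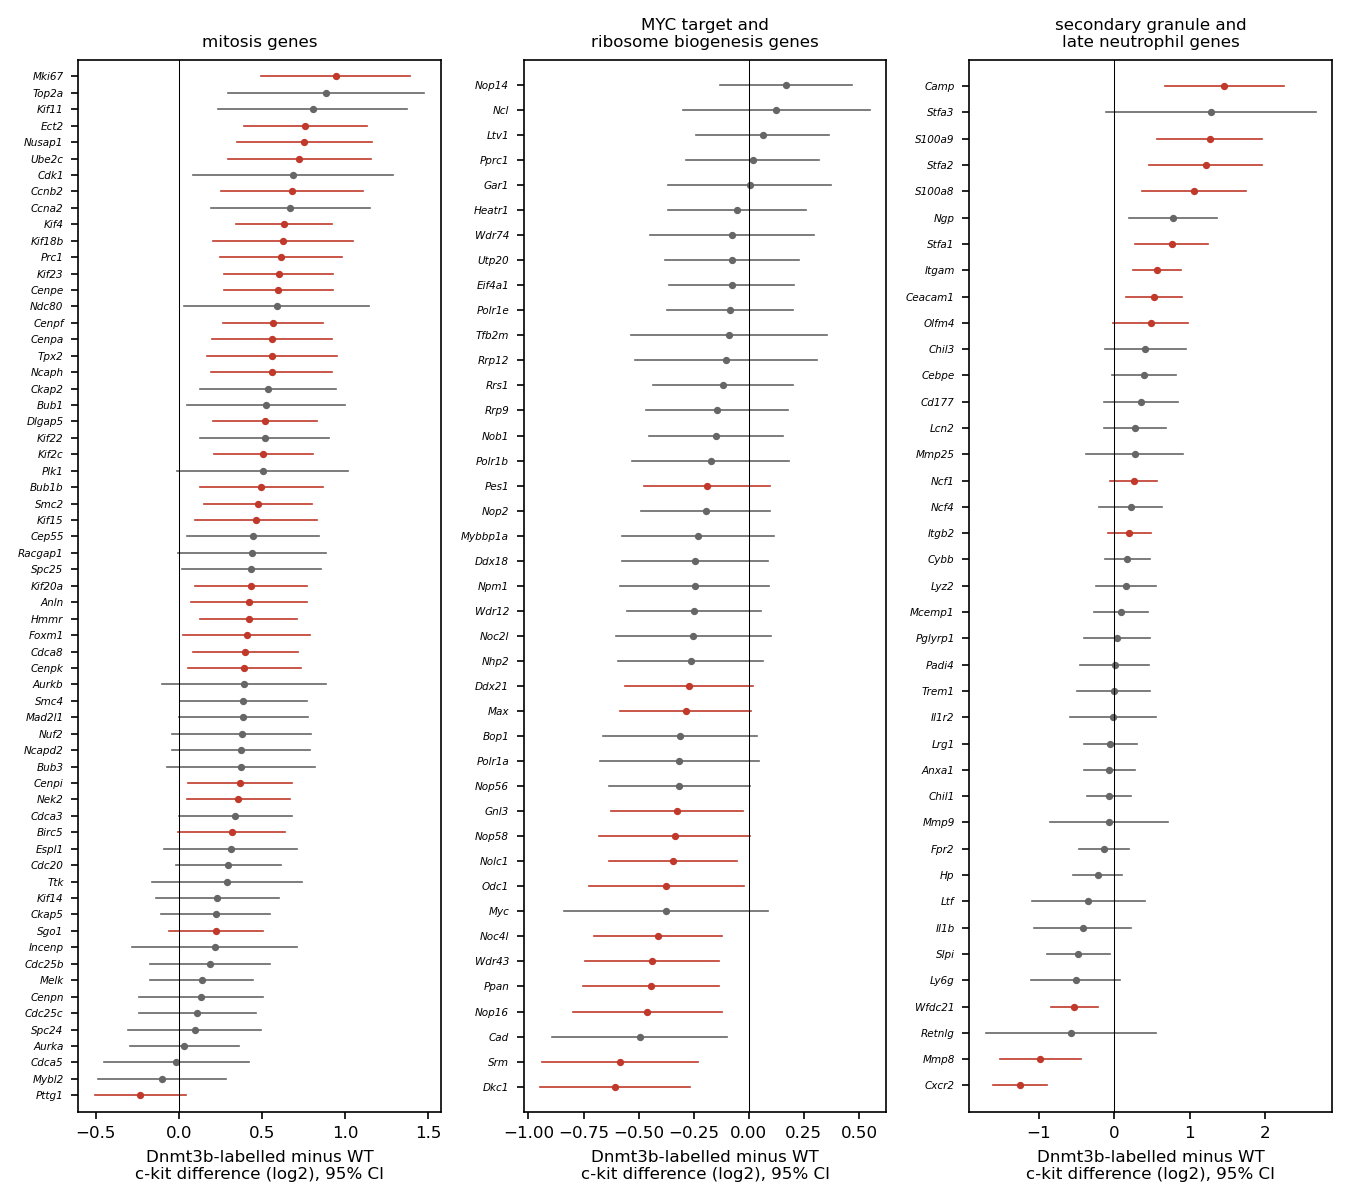
Contrast of the c-kit difference, Dnmt3b-labelled minus WT (log2), with its 95% interval from limma for each tested member of 3 lists; red marks genes whose 3 against 3 differences do not overlap. Of 63 mitosis genes 60 lie above 0, of 41 MYC target genes 36 lie below 0, and the 39 late neutrophil genes spread to both sides.

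Genes of MYC and ribosome biogenesis showed the opposite order of the genotypes. These genes build nucleolar RNA-protein complexes, polyamines and nucleotides in growing cells. Of 41 tested, 27 were higher in c-kit-positive cells over both genotypes and none lower. The list median was 0.48, 0.44 and 0.46 in WT and 0.06, 0.35 and 0.18 in the Dnmt3b-labelled leukaemias. All 3 Dnmt3b-labelled values lay below all 3 WT values. The contrast was below 0 for 36 of 41 genes (median -0.25), and 10 were lower at an unadjusted p under 0.05 and none higher. That count was 5 without leukaemia 81, 7 without 75 and 10 to 15 without each of the others.

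Dkc1, the pseudouridine synthase dyskerin, differed by 0.68, 1.14 and 0.77 in WT and by 0.11, 0.42 and 0.24 in the Dnmt3b-labelled leukaemias (contrast -0.61, SE 0.16, limma adjusted p = 0.700). Its level in c-kit-positive cells was 7.34, 7.56 and 7.47 against 6.79, 6.48 and 6.12, with no overlap, and the c-kit-negative cells overlapped. Srm, the spermidine synthase, differed by 0.69, 1.08 and 0.56 against 0.06, 0.36 and 0.16, and Wdr43, a nucleolar protein, by 0.66, 0.84 and 0.60 against 0.11, 0.24 and 0.42. The other 7 genes at an unadjusted p under 0.05 were Ppan, Noc4l, Nop16, Cad, Nolc1, Gnl3 and Odc1, with contrasts from -0.50 to -0.33. Ncl, encoding nucleolin, did not share the pattern: 0.69, 0.97 and 0.68 against 0.47, 0.97 and 1.28.

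Other growth and metabolic lists had smaller median contrasts. The cytosolic ribosomal protein genes had medians of 0.38, 0.28 and 0.44 in WT and -0.06, 0.32 and 0.50 in the Dnmt3b-labelled leukaemias, so only leukaemia 81 stood apart, and the median contrast moved from -0.07 to 0.06 without it. Oxidative phosphorylation subunits had 0.30, 0.34 and 0.35 against 0.07, 0.31 and 0.32, and a median contrast of -0.08 that became 0.01 without leukaemia 81. Of the 28 TCA cycle and mitochondrial amino acid enzymes, 20 were hierarchy genes, all higher in c-kit-positive cells, and 22 of 28 contrasts lay below 0. The median was -0.10 with all leukaemias, -0.03 without 81, -0.06 without 79 and -0.16 without 73.

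The 28 glutathione and redox genes had list medians of 0.24, 0.21 and 0.20 in WT and 0.03, 0.07 and 0.19 in the Dnmt3b-labelled leukaemias. Their median contrast was -0.12, and 5 were lower and none higher at an unadjusted p under 0.05. Of 27 haem and erythroid genes, 2 were lower and none higher, with a median contrast of 0.00 (0.00368). Single enzymes of the TCA, haem and glutathione lists are given next. Idh2, the mitochondrial isocitrate dehydrogenase, differed by 1.04, 1.14 and 0.96 in WT and by 0.44, 0.52 and 0.94 in the Dnmt3b-labelled leukaemias (contrast -0.42, SE 0.15, limma adjusted p = 0.791). Fech, the ferrochelatase that completes haem, differed by 0.69, 1.10 and 0.97 against 0.08, 0.18 and 0.23 (contrast -0.76, SE 0.14, adjusted p = 0.343), whereas Alas1, the first enzyme of the same path, was 0.78, 0.43 and 0.41 against 0.58, 0.35 and 0.75. Suclg2, a subunit of succinyl-CoA ligase, differed by 0.45, 0.58 and 0.74 against 0.13, 0.05 and -0.06, but its other probe set gave a contrast of 0.15 in place of -0.55. Gsto1, a glutathione transferase, differed by 0.62, 0.92 and 1.06 against 0.22, 0.20 and 0.39. Sod2, the mitochondrial superoxide dismutase, differed by 0.44, 0.54 and 0.67 against -0.06, -1.26 and 0.17, where leukaemia 83 had a c-kit-negative level of 8.59 against 6.55 to 7.39 in the other 5.

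Primary granule genes mark the promyelocyte stage. Of 19 tested, 15 were higher in c-kit-positive cells and none lower. Their median was 0.84, 0.94 and 0.49 in WT and 0.73, 0.53 and 0.71 in the Dnmt3b-labelled leukaemias, and the groups overlapped. The median contrast was -0.18 with all leukaemias, -0.07 without 73 and -0.28 without 79. In that last fit 6 members in place of 2 were lower at an unadjusted p under 0.05, against 2.67% of all genes. Elane, the neutrophil elastase, was 2.33, 1.14 and 1.86 against 1.33, 1.70 and 1.29, and Ms4a3, a membrane protein of granulocyte precursors, was 2.08, 1.49 and 0.48 against 1.39, 1.55 and 1.68. At an unadjusted p under 0.05, the contrast was below 0 for Cst7 and Nkg7 and above 0 for Prss57, a serine protease (0.42). Cst7, encoding cystatin F, differed by 0.85, 1.29 and 0.94 against 0.36, 0.27 and 0.36 (contrast -0.70, SE 0.15, limma adjusted p = 0.444). Its level in c-kit-positive cells was 8.22, 9.37 and 7.89 in WT and 6.77, 6.53 and 6.47 in the Dnmt3b-labelled leukaemias.

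Secondary granule and late neutrophil genes split into both directions. Of 39 tested, 28 were lower in c-kit-positive cells over both genotypes and 1 higher. The margin of kept was met by 5 (Mmp8, Mmp9, Fpr2, Lyz2 and Anxa1), although the interval of Mmp8 excluded 0. The list median was -0.38, -0.73 and -1.05 in WT and -0.50, -0.38 and -0.33 in the Dnmt3b-labelled leukaemias, which overlapped. At an unadjusted p under 0.05, 8 contrasts were higher and 4 lower. The 8 were Camp, S100a8, S100a9, Stfa1, Stfa2, Itgam, Ceacam1 and Ngp, from 0.53 to 1.46, and all had the step towards c-kit-negative cells that was smaller, absent or turned in the Dnmt3b-labelled leukaemias. The 4 were Cxcr2, Mmp8, Wfdc21 and Slpi. Itgam, the CD11b integrin chain, differed by -0.69, -1.05 and -0.97 in WT and by -0.21, -0.49 and -0.32 in the others (contrast 0.57, SE 0.15, limma adjusted p = 0.700).

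The level of this list was higher in the Dnmt3b-labelled leukaemias in both fractions. Its mean log2 signal in c-kit-positive cells ranged from 7.81 to 8.22 in WT and from 8.58 to 8.79 in the Dnmt3b-labelled leukaemias, and in c-kit-negative cells from 8.58 to 9.13 against 9.35 to 9.46. Without leukaemia 79 the list's median contrast was 0.03 in place of 0.16. Without 73, 16 members were higher at an unadjusted p under 0.05, against 2.57% of all genes in that fit. Fpr2, a formyl peptide receptor, kept its step at -1.12, -0.88 and -1.40 against -1.23, -1.36 and -1.21, and Anxa1, the annexin that it binds, at -1.15, -1.35 and -1.05 against -1.25, -1.003 and -1.48.

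Because DNA methylation at CpG sites is the reaction of Dnmt3b, the CpG content of the window before the start site is shown for 2 genes with a larger step in the Dnmt3b-labelled leukaemias, chosen after their values were seen. CpG sites are in capitals, and the source and window are as above.
Cxcr2 (chr1:74153744-74153993, + strand): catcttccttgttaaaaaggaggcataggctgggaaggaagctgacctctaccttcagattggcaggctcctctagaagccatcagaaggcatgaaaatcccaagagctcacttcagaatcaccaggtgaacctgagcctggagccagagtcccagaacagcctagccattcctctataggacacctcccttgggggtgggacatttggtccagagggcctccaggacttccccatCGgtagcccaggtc
Dusp1 (chr17:26508473-26508722, - strand): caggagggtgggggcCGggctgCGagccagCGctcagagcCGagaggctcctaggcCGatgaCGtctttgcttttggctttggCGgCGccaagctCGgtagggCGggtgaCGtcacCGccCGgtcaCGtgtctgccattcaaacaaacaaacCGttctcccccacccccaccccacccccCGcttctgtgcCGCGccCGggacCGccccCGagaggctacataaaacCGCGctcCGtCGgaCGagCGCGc
Cxcr2 held 1 CpG and Dusp1 held 28. The median was 2 CpG over the 34 windows of the late neutrophil list, 18 over the 59 mitosis windows, 11 over the 18312 windows of the genes tested and 6 over all windows. Hierarchy genes higher in c-kit-positive cells had a median of 18 CpG over 2458 windows. It was also 18 over the 142 windows of those whose groups did not overlap with the larger step in the Dnmt3b-labelled leukaemias, and 17 over the 225 with the smaller step. For genes lower in c-kit-positive cells the medians were 6 over 1254 windows, 8 over the 115 with the larger step and 3 over the 92 with the smaller step. The arrays measure RNA and not methylation.

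Monocyte and macrophage genes, which are higher in c-kit-negative cells, had the larger step in the Dnmt3b-labelled leukaemias in most members. Of 30 tested, 21 were lower in c-kit-positive cells and none higher. The list median was -0.42, -0.39 and -0.18 in WT and -0.90, -0.73 and -0.49 in the Dnmt3b-labelled leukaemias, without overlap. The median contrast was -0.13 and 7 were lower at an unadjusted p under 0.05 (Cd68, Treml4, Csf1r, Adgre1, Ccr2, Fcer1g and Tyrobp) and none higher. The count was 2 without 79 (2.67% of all genes lower in that fit), 2 without 81 (2.65%), 4 without 83 (2.78%) and 11 without 85 (4.37%). The median contrast was -0.31 without 75, -0.29 without 85, -0.23 without 73 and -0.11 to -0.10 without each of the others. Csf1r, the receptor of the macrophage growth factor, differed by -1.31, -1.52 and -0.59 against -2.04, -1.89 and -1.43 (contrast -0.65, SE 0.23, limma adjusted p = 0.787). Cd68, a macrophage lysosomal glycoprotein, differed by -0.52, -0.20 and -0.06 against -1.60, -1.13 and -0.57. Ctss (cathepsin S) and F13a1 (a coagulation factor XIII chain) had large steps that overlapped, and Fn1, Lgals3 and Nr4a1 were kept.

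Lysosomal and receptor genes of myeloid cells followed. Of 31 lysosomal hydrolases and cathepsins, 25 contrasts lay below 0 and 8 had an unadjusted p under 0.05, none of them above 0. Ctsc, the dipeptidyl peptidase that activates granule proteases, differed by -0.47, -0.66 and -0.06 in WT and by -1.26, -1.63 and -0.93 in the Dnmt3b-labelled leukaemias (contrast -0.88, SE 0.20, limma adjusted p = 0.572). The list's median contrast was -0.24 with all leukaemias, -0.09 without 79, -0.11 without 81 and -0.41 without 85. The count was 14 without 85 and 5 or 6 without each of the others. Of 20 progenitor surface receptors, 5 were lower at an unadjusted p under 0.05 and none higher. Ifngr1, the interferon-gamma receptor, differed by 0.67, 0.61 and 0.55 against 0.10, 0.01 and 0.39. Csf3r, the receptor of the neutrophil growth factor G-CSF, differed by 0.28, 0.10 and 0.13 against -0.13, -0.28 and -0.30, opposite in sign but small. Flt3, a receptor of early progenitors and dendritic cells, did not follow the genotype: -1.22, -1.24 and 1.12 in WT and -0.63, -0.72 and 0.44 in the others.

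Immediate early genes, which are induced within minutes of a stimulus, and NF-kappaB targets lay mostly on the c-kit-negative side. Of 37 immediate early and stress genes, 19 were lower in c-kit-positive cells and 2 higher. The list median was -0.21, -0.26 and -0.29 in WT and -0.65, -0.66 and -0.27 in the Dnmt3b-labelled leukaemias, so leukaemia 85 overlapped with WT. The contrast was below 0 in 30 of 37 genes (median -0.20), and 8 were lower and none higher at an unadjusted p under 0.05. The 8 were Dusp1, Zfp36, Fos, Junb, Dusp6, Btg2, Fosb and Ier3, and without leukaemia 85 the count was 15 and the median contrast -0.33, in a fit where the share of all genes that were lower was also larger, 4.37% against 2.90%.

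Dusp1, a phosphatase that shuts off MAP kinases, differed by -0.82, -0.61 and -0.29 in WT and by -1.36, -1.48 and -1.71 in the Dnmt3b-labelled leukaemias (contrast -0.94, SE 0.16, limma adjusted p = 0.247). Zfp36, an RNA-binding protein that degrades cytokine messages, differed by -0.24, -0.26 and -0.58 against -1.18, -1.05 and -0.88 (contrast -0.68, SE 0.15, adjusted p = 0.479). The AP-1 subunits Fos and Junb did not overlap either, with -0.35, -0.39 and -0.17 against -1.37, -1.20 and -0.44 for Fos. Nr4a1, an orphan nuclear receptor of the same class, was kept, at -1.07, -1.53 and -1.43 against -1.29, -2.06 and -0.69.

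Of 35 inflammatory cytokine and NF-kappaB genes, 17 were lower in c-kit-positive cells and none higher, and 8 contrasts were lower and none higher at an unadjusted p under 0.05. Ccl3, a macrophage chemokine, differed by -1.29, -1.09 and -0.21 in WT and by -2.96, -2.15 and -1.27 in the Dnmt3b-labelled leukaemias (contrast -1.26, SE 0.37, limma adjusted p = 0.750), and Tnfaip3, an inhibitor of NF-kappaB, by -0.34, -0.29 and 0.37 against -1.06, -1.31 and -0.26. The count without leukaemia 83 was 3 (2.78% of all genes lower in that fit) and without 85 was 17 (4.37%). Of 26 interferon response genes, 1 was higher and 6 were lower in c-kit-positive cells, against 13% and 6.61% of all genes tested. At an unadjusted p under 0.05, 4 contrasts were lower and none higher. Zbp1, a sensor of Z-form nucleic acids, differed by 0.13, -0.15 and -0.17 against -0.82, -1.01 and -0.33, and Oasl2, an oligoadenylate synthetase-like protein, by -0.13, 0.03 and -0.22 against -1.03, -0.61 and -0.44. Mcl1, a survival protein of the BCL2 family, differed by -0.29, -0.29 and -0.36 against -0.76, -0.68 and -0.72.

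**Figure D5:**
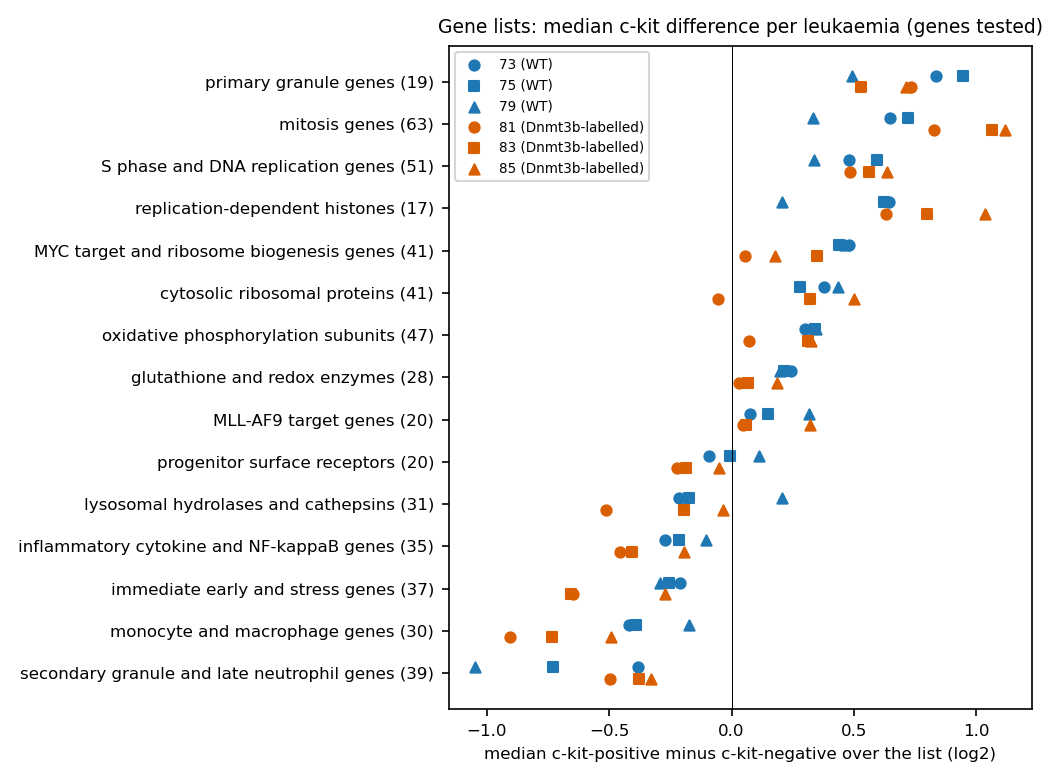
Median c-kit-positive minus c-kit-negative log2 difference over each of 15 gene lists, per leukaemia, with the number of genes tested in brackets. The Dnmt3b-labelled leukaemias lie above WT in the mitosis list (0.83 to 1.12 against 0.33 to 0.72). They lie below WT in the MYC list (0.06 to 0.35 against 0.44 to 0.48) and the monocyte list (-0.90 to -0.49 against -0.42 to -0.18). The glutathione and redox list also lies below WT (0.03 to 0.19 against 0.20 to 0.24), and the genotypes overlap in the other lists drawn.

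The contrasts of MLL-AF9 targets and stem cell regulators had medians near 0. Over the progenitor surface receptors the median was -0.13 and 14 of 20 contrasts lay below 0; the difference between these lists was not tested. Of 20 MLL-AF9 target genes, 6 were higher in c-kit-positive cells and none lower, and the median contrast was -0.03 (-0.14 to 0.05 with 1 leukaemia left out). Myb, a transcription factor that sustains this leukaemia, differed by 1.19, 0.78 and 0.73 in WT and by 0.998, 1.07 and 1.29 in the Dnmt3b-labelled leukaemias, and Hoxa9, the homeobox target of MLL fusions, by 0.82, 0.54 and 0.40 against 0.24, 0.55 and 0.61. The groups overlapped in both. Gfi1, a repressor of the granulocyte branch, differed by 1.11, 1.02 and 0.52 against 1.62, 1.25 and 0.96. Of 28 stem cell regulators only Id2 had an unadjusted p under 0.05, and the median contrast was -0.01 (-0.04 to 0.04 with 1 leukaemia left out).

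Genes that write or read DNA methylation were listed because of the Dnmt3b label. Of 21 tested, 9 were higher in c-kit-positive cells and none lower, and the median contrast was -0.02 (-0.09 to 0.03 with 1 leukaemia left out). Dnmt1, the maintenance methyltransferase, differed by 0.67, 0.73 and 0.46 in WT and by 0.55, 1.0 and 1.39 in the Dnmt3b-labelled leukaemias (contrast 0.36, SE 0.19, limma adjusted p = 0.892). Its partner Uhrf1 differed by 0.91, 1.10 and 0.33 against 0.55, 1.28 and 0.71. Of 34 Polycomb and trithorax genes none had an unadjusted p under 0.05; Ezh2, the histone H3 lysine methyltransferase of Polycomb, was 0.59, 0.79 and 0.45 against 0.52, 0.96 and 0.94. Of 16 germline genes known to be silenced by DNA methylation, Rhox5, a homeobox gene, differed by -0.28, -0.20 and -0.24 against 0.09, 0.01 and 0.27, with all levels between 5.46 and 5.87. Of 19 imprinted genes, 10 contrasts lay above 0 and 9 below, with a median of 0.01, and 1 was higher and 2 lower at an unadjusted p under 0.05. Impact, a translational regulator, differed by 0.30, 0.42 and 0.46 against 0.15, -0.30 and -0.30, whereas Peg12 had a contrast of 0.34.

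Markers of other blood cells were described beside these results. Of 19 T and NK cell markers, 3 were lower in c-kit-positive cells, and the list median was -0.06, -0.06 and -0.07 in WT and -0.33, -0.14 and -0.22 in the Dnmt3b-labelled leukaemias. Il2rb, a receptor chain of T and NK cells, was 0.04, 0.09 and 0.00 against -1.32, -0.02 and -0.44. The mean level of the 19 markers in c-kit-negative cells was 5.55 to 5.65 in WT and 5.68 to 5.86 in the Dnmt3b-labelled leukaemias. Of 14 B cell markers, 2 were lower in c-kit-positive cells, with mean levels in c-kit-negative cells of 5.54 to 5.57 against 5.69 to 6.04. In c-kit-positive cells the B cell level was also higher, 5.44 to 5.53 against 5.55 to 5.70, and the list's median contrast was -0.02. The T and NK level overlapped in c-kit-positive cells, at 5.40 to 5.57 against 5.49 to 5.63, with a median contrast of -0.09. These lists lay near the array medians of 5.557 to 5.712. Cd3e, a defining chain of the T cell receptor complex, had its highest level, 5.58, in the c-kit-negative cells of leukaemia 81 and lay between 4.68 and 5.10 on the other 11 arrays. Igh-VS107, an immunoglobulin heavy chain segment named here after its values were seen, differed by 0.14, -0.27 and 0.13 in WT and by -1.11, -0.85 and -1.49 in the Dnmt3b-labelled leukaemias (contrast -1.15, SE 0.18, limma adjusted p = 0.230). Its level in c-kit-negative cells was 5.62, 5.88 and 5.79 against 6.99, 6.61 and 7.32, and in c-kit-positive cells it lay between 5.61 and 5.92. The lymphoid values were thus higher in the c-kit-negative cells of the same leukaemias in which Cxcr2, Clec4a3, monocyte, NF-kappaB and interferon genes had the lower contrast. For the B cell list the c-kit-positive cells were higher too. The part of lymphoid cells in those results was not tested. The platelet chemokine Pf4 differed by -1.64 in leukaemia 73 and by -0.43 to 0.32 in the other 5, and Ppbp by -1.76 in 73, -0.87 in 83 and -0.28 to 0.04 in the rest.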

How the data were processed

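The deposited values are log2 signals that the submitters made from the array scans with RMA in Affymetrix Expression Console, per the submitters' processing notes; versions and build are not given in the sources used here. The authors' table holds 41345 probe sets on 12 arrays. GEO's platform annotation gave 1 gene symbol for 23521 probe sets and several for 1814, and 16010 were unnamed; for genes with several probe sets the one with the highest mean was kept. Genes above the 25th percentile of the table (log2 4.61) on at least 3 of 12 arrays were tested, and 3028 were left out. limma 3.58.1 in R 4.3.3 (lmFit, eBayes) was fitted to the 6 within-leukaemia differences with Benjamini-Hochberg adjustment over all 19152 genes, two-sided, at 0.05; the fit had 4 residual and 7.45 prior degrees of freedom. It was tested on simulated data. The titles number the leukaemias, and in all 6 both arrays deviated together, so the difference acts as the replicate block. Lists are described by counts and medians. Named genes were Kit, Dnmt3b, up to 10 per direction of each contrast, 6 kept genes per direction and 3 by p and 3 by size per list; others are named where a full set past a stated p is given or where said. Members and lists were chosen with earlier results of these data known. Alternatives covered the block, filter, scaling, probe sets, eBayes options, the margin and leaving out each leukaemia. Promoters are RefSeq windows on GRCm38.p6, matched by symbol for 14902 of 19152 genes tested; only the bases before the start were searched.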

Additional observations from a re-analysis of the deposited data

Results flagged for a closer look

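For 8 of the genes named by rule, all 3 leukaemias of one genotype differed one way and all 3 of the other the opposite way. All 8 were named for having among the smallest p of the genotype contrast in their lists, which favours such a split. Some splits rest on values close to 0, as for Il2rb and Rhox5. Of all 19152 genes tested, 176 were above 0 in the Dnmt3b-labelled leukaemias and below 0 in WT, and 152 the reverse. The difference was tested in each, and none passed (limma). Dnmt3b-labelled minus WT, the c-kit difference was higher by 0.62 for Rb1, 0.30 for Pcgf1 (a Polycomb ring finger protein), 0.34 for Peg12 (an imprinted gene), 0.37 for Rhox5 and 0.35 for Col3a1 (a collagen chain). The contrast was -0.40 for Csf3r, -0.45 for Cd79a (a B cell receptor chain) and -0.64 for Il2rb.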

How the results depend on the processing

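The genotype contrast called 0 genes under each alternative with all 6 leukaemias, including no replicate block and a random replicate block, and 0 to 2 with a leukaemia left out: 1 without 73 (Camp), 1 without 79 (Cxcr2) and 2 without 85 (Clec4a3, Lipg). Counts of the c-kit difference depended on the pairing: with no replicate block 1118 genes were higher and 462 lower over both genotypes, 76 and 71 in WT, and 216 and 144 in the Dnmt3b-labelled leukaemias. Leaving out a leukaemia gave 1900 to 2508 genes higher and 734 to 1386 lower over both genotypes, 306 to 1701 and 128 to 714 in WT, and 504 to 1129 and 241 to 554 in the Dnmt3b-labelled leukaemias. The kept class held 1 gene with a margin of 25% in place of 50% and 27 to 66 genes with a leukaemia left out. The contrast turned for Hif1a with the mean of all probe sets (0.0124) and for Ccr9 without replicate 81 (-0.004053; 0.36 without 85). The stricter filter moved the median contrast of histones to 0.39 and of inflammatory genes to -0.28. Median centring and repeated quantile normalization shifted the median contrast by -0.0233 and -0.0105. The cause of these shifts was not tested. With 3 leukaemias per genotype, contrasts smaller than about 0.324 lie inside the typical interval.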
